A study of Capra hircus with 20 samples.

Results

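The miR-181 family was read here as every row of the deposited goat hypothalamus table whose name, without species prefix and arm suffix, is miR-181a, miR-181b, miR-181c or miR-181d. The rule found 5 of 683 rows: miR-181b-5p, miR-181b-3p, miR-181c-5p, miR-181c-3p and miR-181d, the last without an arm suffix. The rule found 0 rows named miR-181a, so the sums and shares below are of the family without it. The libraries are small RNA from the hypothalamus of Jining grey goats at 1, 60, 120 and 180 days after birth, with 5 biological replicates at each age and 20 libraries in all. The animals shared breeding environment and management, with free access to food and water. No treatment or genetic change separates the groups, and the labels used here name neither sex nor batch. The replicates were taken as separate animals on the word of the series' design text.

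A miRNA is cut from a hairpin that can yield a 5p and a 3p strand; usually 1 strand, the guide, is loaded into Argonaute and pairs with target mRNAs through its seed, the bases near its 5′ end. The 5p strands of the miR-181 family share a seed and have nearly identical sequences; how the authors counted reads that match several members is not stated here, so the split between their 5p levels is uncertain to that extent. The family is best known from thymus, where it tunes T cell receptor signalling, and it is also abundant in brain, where it has been studied in neurons and astrocytes. In the RefSeq gene table for the goat assembly ARS1.2, MIR181C and MIR181D are immediate neighbours with no gene between them. MIR181B lies within the span of NR6A1, an orphan nuclear receptor gene, next to NR5A1, the gene of steroidogenic factor.

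Levels are in RPM, read counts scaled so that the miRNA reads of every library add up to the same total. Depth ran from 4017937 to 8324880 miRNA reads, so that 3 reads, used as the floor, stood for 0.36 to 0.747 RPM; this floor covers counting error only. Replicate 2 of day 1 was the shallowest library and lay apart from the rest (median rho of 0.873 to the remaining 19, where replicate 3 of day 1, the second lowest, had 0.918). Values that it moved most are also given without it. The tissue label was set beside miR-9 and miR-7, which are abundant in neural and neuroendocrine tissue: their 4 rows together held between 101107 and 448412 RPM in every library. Other brain regions were not compared, so these levels do not tell the hypothalamus from them.

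The order of the 5 rows was the same in 20 of 20 libraries: miR-181b-5p, then miR-181d, miR-181c-3p, miR-181c-5p and miR-181b-3p. Together they averaged 1913 ± 1017 RPM (SD, n = 20), or 0.191% of miRNA reads. miR-181b-5p made up 83.2% ± 10.8 of this sum, miR-181d 12.5% ± 8.50, miR-181c-3p 3.03% ± 2.04, miR-181c-5p 1.13% ± 1.16 and miR-181b-3p 0.0861% ± 0.101 (SD, n = 20 for each). By mean level over the libraries, miR-181b-5p ranked 51 and miR-181b-3p 383 of 683 rows. These levels compare reads of different miRNAs, whose ligation and amplification in a small RNA library need not be equal.

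miR-181b-5p, the guide strand of miR-181b, was the most abundant row and the one with the widest range on day 180. On day 1 it measured 1425, 2203, 1441, 575 and 1232 RPM in replicates 1 to 5. On day 60 the values were 1273, 1906, 1502, 831 and 1472 RPM, and on day 120 they were 655, 1503, 2654, 1979 and 1620 RPM. On day 180 they were 1893, 2306, 5180, 365 and 1023 RPM, so that this age held both the highest and the lowest of the 20 values, 14.2-fold apart. The 4 ages overlapped throughout, with means of 1375 ± 582, 1397 ± 391, 1682 ± 729 and 2153 ± 1853 RPM (SD, n = 5).

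miR-181d, encoded beside miR-181c, was the steadiest row. It measured 264, 356, 192, 180.8 and 89.4 RPM on day 1 and 314, 192, 106, 180 and 227 RPM on day 60. It then measured 226, 244, 175, 126 and 117 RPM on day 120 and 95.1, 138.3, 139, 263 and 151 RPM on day 180. The age means, 216 ± 99.7, 204 ± 75.7, 178 ± 57.2 and 157 ± 62.9 RPM (SD, n = 5), lay in descending order, but every age overlapped every other. Its spread between animals of 1 age was 0.586 on the log2(RPM + 1) scale, and 17.4% of the 414 miRNAs tested had a smaller one; the median miRNA had 0.824. In replicate 4 of day 180 miR-181d had its highest value of that age while miR-181b-5p had its lowest.

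miR-181c-3p, the strand opposite the family's shared seed, had the clearest difference with age, although it did not pass the test. It measured 94.8, 201, 99.0, 43.3 and 27.3 RPM on day 1 and 69.2, 31.5, 13.8, 17.4 and 66.4 RPM on day 60. On day 120 the values were 56.5, 50.1, 48.9, 29.4 and 24.3 RPM, and on day 180 they were 14.2, 33.9, 24.2, 36.3 and 32.9 RPM. The 3 highest values of the 20 came from day 1, but replicate 5 of day 1 lay among the day-180 values, so the groups overlapped.

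miR-181c-5p, which carries the family seed, measured 13.2, 138.1, 37.7, 7.68 and 3.26 RPM on day 1, the highest value being that of the library that stood apart. It measured 30.7, 13.1, 2.99, 4.80 and 27.5 RPM on day 60. The following ages were narrower, from 7.996 to 21.3 RPM on day 120 and from 4.73 to 20.03 RPM on day 180. Behind these levels stood 13 to 555 reads a library. Its spread within an age was 1.28 on the log2(RPM + 1) scale, wider than that of 94.0% of the miRNAs tested.

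miR-181b-3p, the passenger strand of miR-181b, was close to the floor, with 0 to 58 reads a library. On day 1 it had 18, 2, 58, 10 and 20 reads, on day 60 it had 5, 8, 0, 2 and 13, and the later ages had between 0 and 17. It was listed at 0 in 2 libraries, replicate 3 of day 60 and replicate 1 of day 120. Its highest value was 8.13 RPM in replicate 3 of day 1, where the other day-1 libraries lay between 0.498 and 2.41 RPM.

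**Figure D1:**
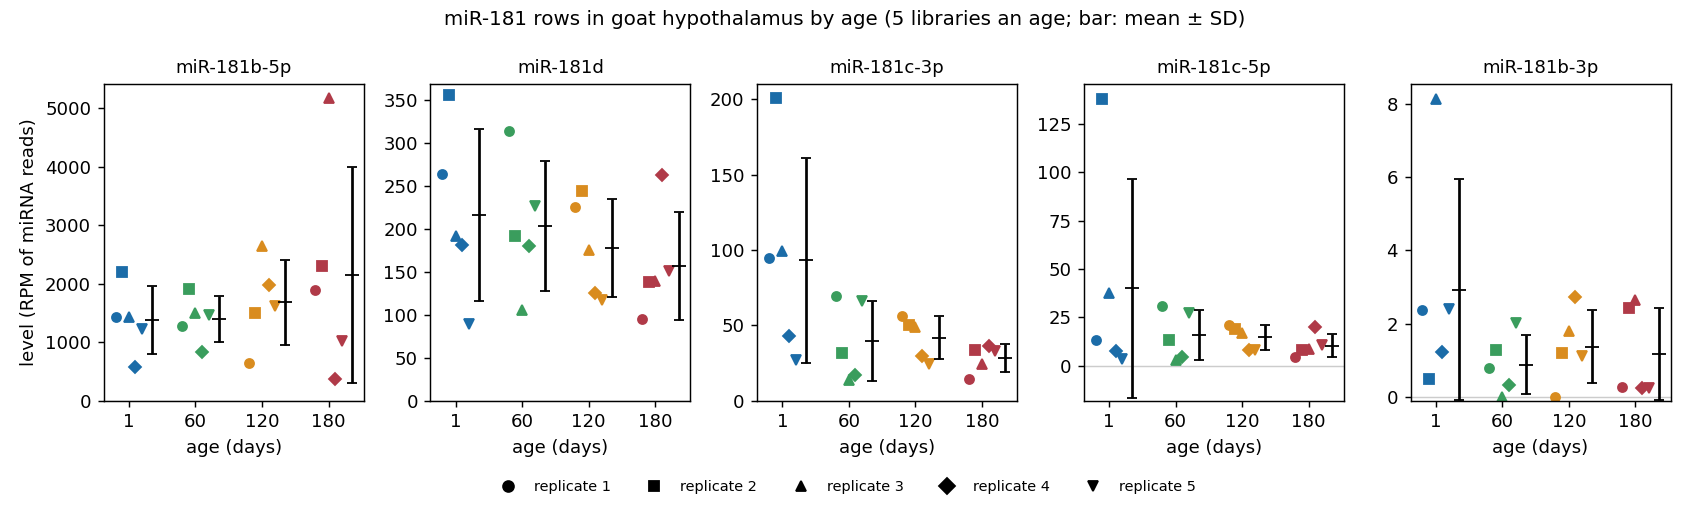
Level of each miR-181 row (RPM, linear axis, own scale in each panel) at 1, 60, 120 and 180 days; each symbol is 1 library, shaped by replicate, and the black bar is the mean ± SD of 5 libraries. The ages overlap in every panel; the day-180 values of miR-181b-5p run from 365 to 5180 RPM, and 1 day-1 library carries the highest value of miR-181c-5p, 138.1 RPM.

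Change with age was tested by limma on log2(RPM + 1), with Benjamini-Hochberg adjustment over the 414 miRNAs that reached 1 RPM in at least 5 libraries; all 5 rows were among them. No member passed in any comparison of ages or in the F test over the 4 ages. Between day 1 and day 60 limma called 0 of 5 members, where 3.86% of all miRNAs were called. Between day 1 and day 120, and again between day 1 and day 180, it called 0 of 5, where 3.38% of all were called in each. For day 60 against 120, day 120 against 180 and day 60 against 180 it called 0 of 5, where 0.0% of all were called, and for the F test 0 of 5, where 1.93% of all were. At an unadjusted limma p under 0.05 there was 1 member, miR-181c-3p, in day 60 against day 1 and in day 180 against day 1. Of all 414 miRNAs, 87 and 86 were under 0.05 in these comparisons, so 1 of 5 members was near the share of all. The other 5 tests had 0 members under 0.05. Over all miRNAs they had 93 for day 120 against day 1, 70 for the F test and between 3 and 20 for the comparisons of later ages. edgeR with TMM called 0 members in each of the 7 tests. It called 13.8% of all miRNAs in day 60 against day 1 and 5.31% in day 180 against day 1, and its other shares are not given here. The count tests that did call 1 are given with miR-181c-3p. Comparisons against day 1 share the same 5 day-1 libraries and are not independent of each other.

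The day-1 mean of miR-181c-3p was 93.0 ± 67.9 RPM, and those of the later ages, in order, were 39.7 ± 26.6, 41.8 ± 14.1 and 28.3 ± 9.12 RPM (SD, n = 5). Its log2 fold change between day 1 and day 180 was -1.43 (SE 0.545; 95% interval -2.55 to -0.31), with a limma adjusted p of 0.138. Between day 1 and day 60 it was -1.17 (SE 0.545; limma adjusted p = 0.221), and -0.81 without replicate 2 of day 1 (limma adjusted p = 0.373). Each later age had 5 of 5 libraries below the day-1 mean, a count that miR-181c-5p and miR-181b-3p shared. In those 2 rows, however, the day-1 mean rested on 1 library. That of miR-181c-5p, 40.0 RPM, lay above every day-1 library but replicate 2, at 138.1 RPM. That of miR-181b-3p, 2.93 RPM, lay above every day-1 library but replicate 3, at 8.13 RPM. Replicate 2 of day 1, at 201 RPM, raised the day-1 mean of miR-181c-3p. Replicates 4 and 5 of day 1, at 43.3 and 27.3 RPM, also lay below that mean of miR-181c-3p. When replicate 2 of day 1, its highest library, was left out, the day-180 difference was -1.08 (limma adjusted p = 0.331), and without replicate 5 of day 1, its lowest of that age, it was -1.78 (limma adjusted p = 0.0415). For day 180 against day 1 DESeq2 called it on the recovered reads (log2 fold change -1.27, adjusted p = 0.0253), as did edgeR on library size alone (-1.71, adjusted p = 0.0461), and edgeR with TMM did not (-1.25, adjusted p = 0.0679). These settings called more of all miRNAs: 7.51% without replicate 5 of day 1, 14.8% with DESeq2, 11.6% with edgeR on library size alone and 5.31% with edgeR and TMM. The adjusted p of miR-181c-3p ran from 0.0253 to 0.331 over the alternatives. The median of all 414 log2 fold changes in this comparison was itself -0.25, against -0.00285 after quantile scaling; relative to these medians miR-181c-3p lay at -1.18 and -1.001.

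The other members had wide intervals. miR-181b-5p had a log2 fold change of 0.28 between day 1 and day 180 (SE 0.54, limma adjusted p = 0.808), and its 95% interval ran from a 0.564-fold to a 2.61-fold level. The sign rested on 1 library of each age: without replicate 3 of day 180 it was -0.16 (limma adjusted p = 0.893), and without replicate 4 of day 1 it was -0.0034. It was larger without replicate 4 of day 180, at 0.80, and in the count tests, at 0.85 with edgeR and TMM (adjusted p = 0.235) and 0.86 with DESeq2 (adjusted p = 0.215). miR-181d stood at -0.40 (SE 0.43, limma adjusted p = 0.632; interval from 0.409-fold to 1.41-fold). miR-181c-5p stood at -0.91 (SE 0.72, limma adjusted p = 0.479) and at -0.20 without replicate 2 of day 1 (limma adjusted p = 0.884). miR-181b-3p stood at -0.76 (SE 0.47, limma adjusted p = 0.374), a value that its low counts and the added 1 RPM draw toward 0.

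Between day 1 and day 60 miR-181b-5p had a log2 fold change of 0.10 (SE 0.54) and miR-181d of -0.03 (SE 0.43), and the sign of the latter turned under median-of-ratios scaling, edgeR with TMM and DESeq2 and without replicate 2 of day 1 (0.18). In 4 of 5 members the day-180 mean lay below the day-1 mean on the log2 scale, with a median of -0.76, while 62.6% of all miRNAs tested lay below 0. From day 60 to day 120 the median of the members was 0.23, and from day 120 to day 180 it was -0.19; over all miRNAs it was 0.03 and -0.15.

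**Figure D2:**
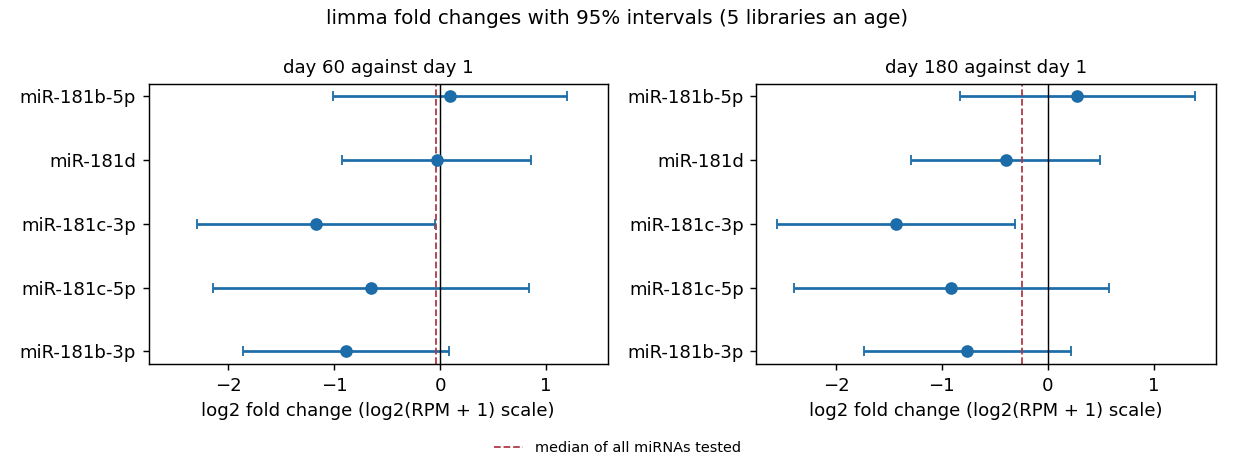
log2 fold change of each row on the log2(RPM + 1) scale from limma, with its 95% interval, for day 60 (left) and day 180 (right) against day 1, 5 libraries an age; the dashed line is the median of all miRNAs tested. Of the 10 intervals, those of miR-181c-3p are the 2 that leave out 0, before adjustment over all miRNAs.

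The arms of the hairpins were compared inside each library, where library scaling has little part. For miR-181b the 5p strand exceeded the 3p strand in 20 of 20 libraries, with a mean log2((5p RPM + 1)/(3p RPM + 1)) of 9.33 ± 0.880 (SD, n = 20). miR-181b-3p was close to the floor, so the added 1 RPM draws this ratio toward 0. The mean stands for 644-fold, while the median ratio without the added 1 RPM was 1461 over libraries with 3p reads. For miR-181c the order was the opposite: the 3p strand exceeded the 5p strand in 20 of 20 libraries, at a mean log2 ratio of 5p over 3p of -1.57 ± 0.557 (SD, n = 20). The 3p reads of miR-181c were between 1.45 and 8.37 times the 5p reads, with a median of 2.96 times. The 5p strand of miR-181c carries the seed that defines the family, so more reads of this hairpin were counted for the strand without it. Reads of this 5p strand may have been counted under other members, and the ligation of the strands need not be equal. The part of either in this order was not tested.

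The arm ratio of miR-181c was widest apart on day 1, at -2.75, -0.54, -1.37, -2.35 and -2.73 in replicates 1 to 5. By day 120 it lay between -1.76 and -1.35, and on day 180 between -1.95 and -0.83. Its mean differed between day 1 and day 180 by 0.52, from -1.95 ± 0.968 to -1.43 ± 0.403 (SD, n = 5; two-sided exact permutation test p = 0.333, adjusted p = 0.837). The arm ratio of miR-181b was 8.61 ± 1.20 on day 1 and 9.65 ± 0.948 on day 180 (exact permutation p = 0.159, adjusted p = 0.837). The size of this difference depended on the added RPM: it was 1.67 with 0.1 RPM added and 0.59 with 5 RPM added. Without replicate 2 of day 1 the differences were 0.87 for miR-181c and 1.52 for miR-181b, and neither passed. With 5 against 5 libraries this test cannot give a p below 0.00794, which is too large for a single ratio to pass the adjustment.

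In all, 20 such tests were run, on 5 ratios in 4 comparisons of ages, and p-values were adjusted over the 20. Even at the smallest p this test can give, a single ratio could not pass the adjustment over the 20. The ratios are therefore not shown to be steady with age. After adjustment 0 passed, and 1 had an unadjusted p under 0.05. This was miR-181c-5p over miR-181d, with a log2 ratio of -3.56 ± 0.219 on day 120 and -3.85 ± 0.173 on day 180 (exact permutation p = 0.0476, adjusted p = 0.837). Day 180 stood against day 1 at a difference of 0.68 for the log2 ratio of miR-181b-5p over miR-181d (exact permutation p = 0.452) and of 1.19 for miR-181b-5p over miR-181c-5p (exact permutation p = 0.317), both at an adjusted p of 0.837. Without replicate 2 of day 1 these differences were 0.67 and 0.68. The level of miR-181b-5p was 1.39 times that of miR-181d in the library where they were closest, replicate 4 of day 180, and 37.3 times in replicate 3 of the same age.

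**Figure D3:**
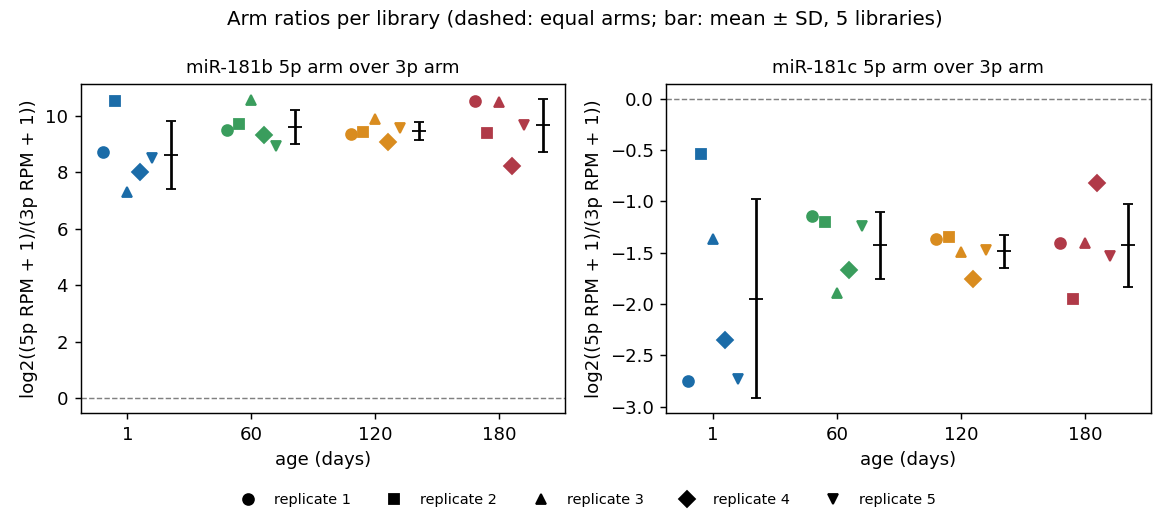
log2 ratio of the 5p to the 3p strand, with 1 RPM added to each, for miR-181b (left) and miR-181c (right) by age in days; symbols are libraries shaped by replicate, the black bar is the mean ± SD of 5, and the dashed line marks equal strands. All 20 libraries lie above the line for miR-181b and below it for miR-181c.

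Across animals miR-181d and both strands of miR-181c varied together, while no relation of miR-181b-5p with them passed the test. Rows of other genes ran as close: by Spearman's rho miR-876-3p stood at 0.87 with miR-181d, miR-487a-3p at 0.92 with miR-181c-3p and miR-410-3p at 0.93 with miR-181c-5p. Correlations of log2(RPM + 1) were computed over the 20 libraries for the 10 pairs of rows, with permutation p-values from 100000 resamples adjusted over the 10. miR-181c-3p and miR-181c-5p, cut from 1 hairpin, had Pearson's r = 0.90 and Spearman's rho = 0.87 (adjusted p = 0.0001 for each; the unadjusted 1e-05 is the smallest p the permutations can give). miR-181d had r = 0.80 and rho = 0.82 with miR-181c-3p (adjusted permutation p = 0.000133 and 0.00015). With miR-181c-5p it had r = 0.84 and rho = 0.83 (adjusted permutation p = 0.0001 and 0.000167).

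These 3 relations were as strong within ages: for deviations from the age means r was 0.94 between the miR-181c strands, 0.88 between miR-181d and miR-181c-3p and 0.85 between miR-181d and miR-181c-5p. Leaving out the 2 libraries farthest from the median of miR-181c-3p in the first relation and of miR-181d in the others gave r = 0.81, 0.77 and 0.78, and leaving out replicate 2 of day 1 gave 0.84, 0.75 and 0.81. miR-181b-5p had r = -0.26 and rho = -0.25 with miR-181d (adjusted permutation p = 0.454 and 0.585), r = -0.02 and rho = -0.13 with miR-181c-3p (0.963 and 0.734) and r = 0.01 and rho = -0.02 with miR-181c-5p (0.963 and 0.942). With its own passenger strand it had r = 0.43 and rho = 0.45 (adjusted permutation p = 0.151 and 0.117), and without the 2 farthest libraries r was 0.31. The points of each pair share a library, its depth and its composition.

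**Figure D4:**
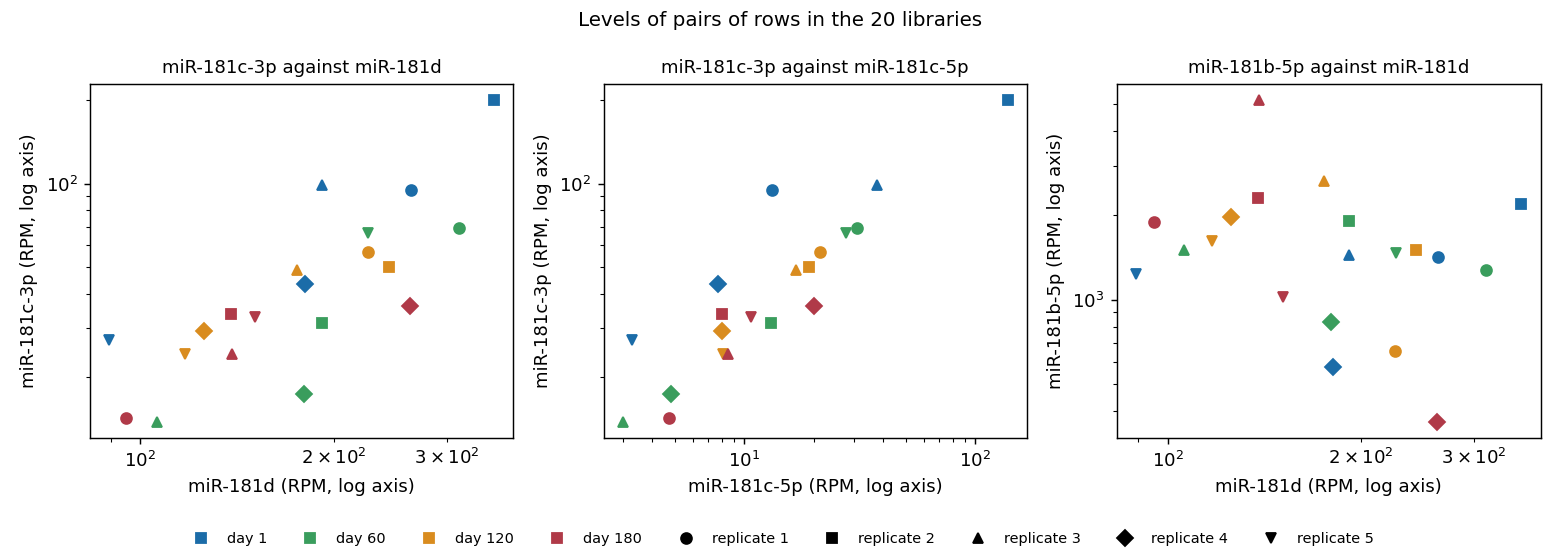
Levels (RPM, log axes) of 3 pairs of rows, 1 symbol a library, coloured by age and shaped by replicate. miR-181c-3p climbs with miR-181d and with miR-181c-5p, while the points of miR-181b-5p and miR-181d scatter: its highest value, 5180 RPM, and its lowest, 365 RPM, fall in the same age.

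The miRNAs whose levels ran most like those of miR-181b-5p were sought among 352 other known miRNAs, by Spearman's rho over the 20 libraries, as a description. The 5 highest were miR-16b-5p at 0.88, miR-3432-3p at 0.86, miR-23b-3p at 0.82, miR-191-5p at 0.81 and miR-338-5p at 0.78. The 3 lowest were miR-7-5p at -0.71, miR-708-3p at -0.68 and miR-379-5p at -0.66, and the median over the 352 was 0.18. With miR-181d the same miR-7-5p stood at 0.68, miR-379-5p at 0.61 and miR-338-5p at -0.37. Without replicate 2 of day 1, miR-338-5p stood at 0.90 and miR-7-5p at -0.74 with miR-181b-5p.

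miRNAs known from single cell types were set beside the family as summed lists, in 25 relations of 5 lists with 5 rows, with permutation p-values adjusted over the 25. The oligodendrocyte list, miR-219 and both strands of miR-338, which act in the formation of myelin, had r = 0.86 and rho = 0.77 with miR-181b-5p (adjusted permutation p = 0.00025 and 0.00475; r = 0.83 without the 2 farthest libraries and 0.89 within ages). miR-338-5p makes up 87.9% of that sum, so the relation is chiefly that of 1 miRNA; miR-219 alone had rho = 0.57 and miR-338-3p 0.55. The miR-7 and miR-9 list had r = -0.68 and rho = -0.69 with miR-181b-5p (adjusted permutation p = 0.0107 and 0.00962; r = -0.64 without the 2 farthest libraries and -0.68 within ages). With miR-181d the same list had r = 0.60 and rho = 0.63 (adjusted permutation p = 0.0474 and 0.0297; r = 0.55 and 0.58), and rho = 0.82 without replicate 2 of day 1. The rows of that list differed: miR-7-5p, 32.1% of the sum, had rho = -0.71 with miR-181b-5p and 0.68 with miR-181d, while miR-9-5p, 67.1% of it, had -0.22 and 0.25. miR-9-3p had 0.26 and 0.30, and miR-7-3p -0.02 and 0.42. The miR-7 and miR-9 list held up to 448412 RPM of a library, and the RPM values of a library add up to a fixed total. The part of that in these relations was not tested. The remaining 22 relations had adjusted p-values above 0.05 on both measures.

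Of the 24 tested rows of the 5 lists limma called 0 between day 1 and day 60 and 0 between day 1 and day 180, with 0 and 1 at an unadjusted p under 0.05. Of all 414 miRNAs it called 3.86% and 3.38%, with 87 and 86 at an unadjusted p under 0.05. edgeR with TMM also called 0 in both, edgeR on library size alone called 1 (miR-129-3p) in each, and DESeq2 called 2 (miR-129-3p and miR-219) on day 60 and 1 (miR-129-3p) on day 180. On day 60 these settings called, in the same order, 13.8%, 15.0% and 20.9% of all miRNAs, and on day 180 they called 5.31%, 11.6% and 14.8%. miR-129-3p and miR-219 were named here after their values were seen. The white blood cell list had 3 of 7 rows above 0 and 4 below in both comparisons. Its sum lay between 796 and 4513 RPM on day 1, and the ranges of the later ages, in order, were 1025 to 1960, 1351 to 7521 and 551 to 3311 RPM, with no row at 0 throughout an age. With miR-181c-3p it had r = 0.08 and rho = 0.08 (adjusted permutation p = 0.826 and 0.919). The neuron list had 2 of 7 rows above 0 in both comparisons, the oligodendrocyte list 2 of 3 and the red blood cell list 0 of 3, while the miR-7 and miR-9 list had 2 of 4 on day 60 and 1 of 4 on day 180. Tested rows of the neuron list were miR-124a, miR-137, miR-218 and both strands of miR-128 and miR-129. Those of the white blood cell list were miR-146a, miR-150, miR-155-5p and both strands of miR-146b and miR-223. The red blood cell list had 4 rows, of which miR-451-5p, miR-144-5p and miR-144-3p were tested. In whole tissue fewer cells of a type and less RNA per cell cannot be told apart.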

How the data were processed

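Trizol extraction and a NEBNext small RNA kit were used, per the labels' protocols. The submitters' processing notes name Bowtie. For the genome build, miRNA catalogue and counter the sources used here give no name. The deposited values, headed TPM by the authors, behave as RPM of miRNA reads: low values are whole multiples of 1 step a column, and 100% of values under 1000 reads came out whole within 0.1 read. The column of row sums was not used.

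limma 3.58.1 (R 4.3.3; eBayes with trend, two-sided) was fitted to log2(RPM + 1) of the 414 miRNAs at 1 RPM or more in at least 5 of 20 libraries, with 4 age means and Benjamini-Hochberg adjustment at 0.05. Alternatives were pseudocounts of 0.1 and 5, other filters and scalings, no trend, 2 ages only, the replicate number as a block, each library left out, and edgeR 4.0.16 and DESeq2 1.42.0 on recovered reads. The fit was tested on simulated data.

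Every row of the family was named, with the 5 miRNAs most and the 3 least alike to miR-181b-5p and up to 3 rows a marker list, by mean level; others were named after their values were seen. Members and lists were chosen with earlier results of these data known. Correlation p-values were added after the data were seen. No 2 libraries of an age agreed within sampling noise (smallest chi-square per degree of freedom 392 over 40 pairs).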

Additional observations from a re-analysis of the deposited data

Results flagged for a closer look

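In 40 sets of 5 libraries (5 rows and 5 log2 ratios at 4 ages), 2 held a library far from the others by Dixon's criterion; chance marks about 1 in 20. miR-181c-5p measured 138.1 RPM in replicate 2 of day 1, where the other 4 libraries lay between 3.26 and 37.7 RPM, and the gap was 0.744 of the range. miR-181b-3p measured 8.13 RPM in replicate 3 of day 1, where the other 4 lay between 0.498 and 2.41 RPM, and the gap was 0.749 of the range.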

How the results depend on the processing

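Over 223 counts of called members under other settings, all but 4 were 0. The count was 1, miR-181c-3p each time, for day 180 against day 1 with DESeq2, with edgeR on library size alone and without day 1 replicate 5 (range 0 to 1 over left-out libraries), and for the F test with DESeq2 (adjusted p = 0.0486, where 21.8% of all miRNAs were called). With the replicate block, limma called 0 members in each of the 7 tests, and the share of all miRNAs it called there is not given here. Libraries sharing a replicate number had deviations with r over 0.1 in 11 of 30 pairs, against 39 of 120 pairs with different numbers. Of 20 libraries, 4 were most alike to 1 of their own number, so the numbers were not taken to pair animals. Over all miRNAs limma called 16 on day 60 and 14 on day 180 against day 1, edgeR with TMM called 57 and 22, and DESeq2 called 86 and 61. Of 318 log2 fold changes against day 1, 11 changed sign, none of them called. For day 60 miR-181d stood at 0.0736 with median-of-ratios scaling, 0.0732 with edgeR and TMM and 0.0897 with DESeq2, and ran from -0.31 to 0.18 over left-out libraries; miR-181b-5p ran from -0.19 to 0.30 and miR-181c-5p from -1.20 to 0.0567. For day 180 miR-181b-5p ran from -0.16 to 0.80. All 65 ratio results and all 48 sums under other settings kept their direction and side of the threshold, or moved by less than 1 SD. A single ratio could not have crossed the threshold, given the smallest p of the permutation test and the adjustment over 20 tests. miR-181b-3p was dropped by the filter at 10 RPM. Depth limits miR-181b-3p, at 0 to 58 reads.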

Other observations

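The likeness search was repeated for the other 4 rows after the values of miR-181b-5p had been seen, as a description over the same 20 libraries and 352 known miRNAs; the 3 highest and the lowest by Spearman's rho are given for each. miR-181d ran most like miR-876-3p at 0.87, miR-3958-3p at 0.85 and miR-411b-5p at 0.83, and let-7i-5p was the lowest at -0.78. miR-181c-3p ran most like miR-487a-3p at 0.92, miR-127-5p at 0.92 and miR-1197-3p at 0.91, and miR-30a-3p was the lowest at -0.83. miR-181c-5p ran most like miR-410-3p at 0.93, miR-411b-5p at 0.92 and miR-411a-5p at 0.92, and let-7f-5p was the lowest at -0.79. miR-181b-3p, at few reads, ran most like miR-1388-3p at 0.79, miR-660 at 0.76 and miR-532-3p at 0.76, and miR-129-5p was the lowest at -0.60. Medians over the 352 were 0.20, 0.27, 0.27 and 0.14 in that order. The points share library, depth and composition, and the part of these was not tested.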
